A study of Xenopus laevis with 4 samples.

Results

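The translation initiation and elongation factors are represented here by 80 probe sets, out of 15491 on the array that are not controls. A probe set was taken where its single platform symbol, without the ending .L or .S, starts with eif or eef and a digit. They stand for 57 of the 7531 gene copies that the array names by 1 symbol; the endings mark the homeologs kept on the long and short subgenomes of the allotetraploid frog Xenopus laevis. A further 5 probe sets that name a factor together with another symbol were left out. The rule itself uses symbols and no measured values.

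Initiation factors bring the small ribosomal subunit, the initiator tRNA and the capped mRNA together. eIF2 carries the initiator tRNA and is recharged with GTP by eIF2B, eIF3 is the large scaffold on the small subunit, and the eIF4 proteins bind the cap and unwind the leader. Elongation factors then deliver aminoacyl-tRNAs (eEF1) and move the ribosome along (eEF2). In frog oocytes many stored mRNAs are held silent by proteins that occupy the cap-binding factor eIF4E, and the vegetal cortex anchors localized mRNAs, some of which are under such control.

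The samples were whole stage VI oocytes, the full-grown stage, and vegetal cortices cut by hand from such oocytes, the thin layer beneath the plasma membrane of the yolk-rich hemisphere. Both came from collagenase-treated ovary of females for which the labels name no genetic change or other treatment. Each group has 2 arrays, and its replicates 1 and 2 come from different females. Same-numbered arrays were taken as a pair from 1 female, and the pairs are called female 1 and female 2 below. This pairing rests on the labels and on the replicate numbers in the titles. Values of single arrays are given in the order replicate 1, replicate 2. The cortices were frozen in batches of 10 and 100 ng of total RNA went into each amplification, so every cortex sample is a pool and its RNA amount was set equal to that of the oocytes. Strain and age are not given in the labels, and the description of the second cortex sample repeats the numbers of the first, so its title was followed. Signals are MAS5 intensities, each array scaled to the same trimmed mean of about 1500. A change is therefore a change in share of the RNA, and a lower amount per cortex cannot be told apart from dilution by the RNAs that are concentrated there.

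Vegetal markers were higher in the cortex, as its label requires, but the lists were chosen with earlier results of these data known. Of 8 probe sets of vegetally anchored RNAs 7 passed as higher in the cortex, with a median log2 change of 3.17. A log2 change is cortex minus whole oocyte, after an offset of 19.1 was added to each signal, and an error after ± is its standard error unless marked SD. The median of the 7 oocyte marker probe sets was 0.64. Of these, 2 passed as higher, dazl.L (2.95 ± 0.30) and ddx25.L (3.29 ± 0.30), at values near the vegetal median of 3.17. The others were at 1.48 (zp2.L), 0.64 (zp4.S), 0.20 and -0.23 (mos.L) and 0.053 (ccnb1.S), so the list did not rise evenly. Signals of ccnb1.S lay between 39277 and 49048 on all arrays. Of 19 probe sets for follicle and stromal cells 12 were too dim to test, and those for collagens and fshr lay between 3.17 and 162. Those of fn1.S were bright in both groups, between 2274 and 18394. The brightest had signals of 14285 and 13428 (oocytes) and 12892 and 18394 (cortices). The summed signal of the 19 was 32747 and 32503 in oocytes and 55559 and 52044 in cortices, and 1 of the 7 tested passed, the steroid enzyme cyp17a1.L (log2 change 2.13 ± 0.36). That probe set alone had signals of 4187 and 5881 (oocytes) and 28863 and 16553 (cortices). Whether its RNA came from follicle cells or from the oocyte was not tested. The dimmer cyp17a1.L probe set was at 1.46 ± 0.70 with overlapping groups, and those of fn1.S and vim.L lay between -0.0051 and 0.16. The higher sum was not tested as a measure of follicle cell RNA. Blood markers gave 0 calls on 2 tested probe sets and animal hemisphere markers 0 on 7. The animal hemisphere markers were not lower in the cortex as a set: 6 of 7 lay above 0, with a median of 0.16. For 3 of them both cortex arrays lay above both oocyte arrays, beside 14.7% of all tested probe sets, and dand5.S was at -1.86 ± 0.68. The array's control probe sets for the 3′ and 5′ ends of actin gave a 3′ to 5′ ratio of 10.04 and 21.3 in the oocyte replicates and 10.2 and 41.6 in the cortex replicates, and those of glyceraldehyde-3-phosphate dehydrogenase gave 32.2, 19.5, 23.2 and 28.0. The second cortex array thus had the highest ratio for actin and not for the other transcript. What part this, or any follicle cell RNA, had in the changes below was not tested.

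None of the factor mRNAs passed the test in either direction. Of 80 probe sets, 69 reached the signal limit of 271 (mean over the 4 arrays) and were tested by limma together with all 9295 probe sets above it. Among these 69, 0 were higher and 0 were lower in the cortex at an adjusted p under 0.05, beside 308 higher (3.31%) and 0 lower (0%) among all. At an unadjusted p under 0.05, 2 factor probe sets were higher and 3 lower, that is 2.9% and 4.35%, where the background was 8.02% higher and 4.62% lower. Neither share exceeded its background in this fit. With the replicate number as a block the share of lower factors did, as given further on. It also did so in other alternatives, among them quantile normalization. Under that scaling 9 of 69 factors were lower at an unadjusted p under 0.05 (limma), beside 396 of 9295 probe sets. Higher were 3 of the factors, beside 778 of all.

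Most of the factors were nevertheless slightly lower in signal. A log2 change below 0 was found for 59 of 69 probe sets, or 85.5%, beside 65.7% of all tested. Lower in both pairs were 45 of them (65.2%), against 47% of all, and higher in both were 7 (10.1%), against 20.8%. The groups did not overlap for 32 factor probe sets: both cortex arrays lay below both oocyte arrays for 28 (40.6%, background 31.8%) and above them for 4 (5.8%, background 14.7%). A difference of at least 2-fold in both pairs was reached upward by 1 probe set (background 5.61%) and downward by 0 (background 0.549%).

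The size of these shifts was small. The median log2 change was -0.36 for the factors, -0.41 for female 1 and -0.21 for female 2. Over all tested probe sets it was -0.20, with -0.27 for female 1 and -0.12 for female 2. The quartiles of the factors were -0.58 and -0.14. Within 0.5 of 0 lay 43 of 69 (62.3%, against 59.5% of all). The median standard error of a single probe set was 0.36, so that a shift of this size cannot be resolved for any 1 factor. In 17 of the 69 (24.6%, against 12.9% of all) the 95% interval of the change lay wholly within 2-fold in either direction; for the rest it reached beyond 2-fold. Taking only the brightest probe set of each of the 51 tested gene copies, the median was -0.37, with 6 above 0 and 45 below. Over 5231 gene copies on the array the median was -0.23, with 1651 above 0 and 3580 below.

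**Figure D1:**
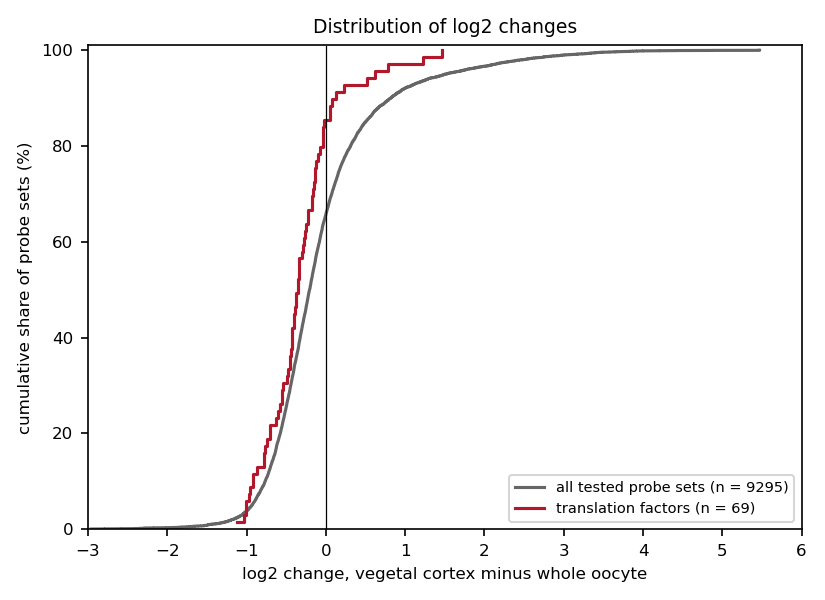
Cumulative share of probe sets (percent, vertical axis) by log2 change of cortex against whole oocyte (horizontal axis), for all 9295 tested probe sets and the 69 translation factors. The factor curve lies to the left of the other at both quartiles and the median, crosses 0 at 85.5% against 65.7%, and lacks the long tail of increases: its highest value is 1.47, against 5.47.

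In the cap-binding group, values ran from the lowest of all factors to the second highest. eif4e1b.S, the germline form of the cap-binding protein that in frog oocytes forms a repressing complex with CPEB and 4E-T, had signals of 157 and 205 (oocytes) and 329 and 605 (cortices). Both cortex arrays lay above both oocyte arrays. The log2 change was 1.23 ± 0.51 (2.35-fold), with 0.98 in female 1 and 1.48 in female 2, and did not pass (unadjusted p = 0.0429, adjusted p = 0.383). Its oocyte signals lay below the limit of 271, so this probe set was tested only because the cortex arrays raised its mean. eif4e3.S, a related cap-binding protein, had the opposite pattern, with signals of 4388 and 3927 (oocytes) and 2623 and 1368 (cortices). Its groups did not overlap either, and its log2 change of -1.12 ± 0.41 was the lowest of all tested factors (adjusted p = 0.307). The females differed, at -0.74 and -1.51, and without the second cortex array the value was -0.66. The other copy, eif4e3.L, had signals of 2633 and 898 (oocytes) and 1700.0 and 376 (cortices). The females differed more than the groups did, and the cortex was lower in each female (-0.63 and -1.21). The log2 change was -0.92, with a standard error of 0.74, or 0.31 with the replicate number, which marks the female, as a block (adjusted p = 0.618 and 0.221). For eif4e2.L, a cap-binding protein that competes with eIF4E, the brighter of the probe sets had a log2 change of 0.055 ± 0.33. The dimmer one was at -0.45 ± 0.49. RefSeq places this gene on a short chromosome, which its ending .L does not match, and the platform symbol was kept.

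Among proteins that bind eIF4E, eif4ebp2.S, a repressor released from eIF4E when mTOR phosphorylates it, had signals of 853 and 893 (oocytes) and 1451 and 1582 (cortices). The arrays within each group were close to each other and the groups did not overlap. Its mean signal went from 873 ± 28.6 to 1517 ± 92.1 (SD, n = 2), and the log2 change was 0.78 ± 0.36, nearly the same in both pairs (0.75 and 0.81), without passing (adjusted p = 0.42). eif4enif1.L, which encodes 4E-T, the transporter and repressor found with eIF4E1b, had signals of 3729.6 and 3018 (oocytes) and 3159 and 3415 (cortices). These groups overlapped, and the log2 change was -0.031 ± 0.34 with an interval of -0.80 to 0.74.

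The scaffold and helicase mRNAs of the eIF4 group lay at or below 0. The 3 tested scaffold probe sets, eif4g1.S, eif4g3 and eif4g2.S (the last lacking the eIF4E-binding part), had log2 changes of -0.14, -0.031 and -0.29. eif4a3.1.S, the helicase of the exon junction complex rather than of initiation, had signals of 24358 and 21578 (oocytes) and 16613 and 14226 (cortices). Its 4 arrays fell into separate ranges by group, with a log2 change of -0.58 ± 0.26 and almost equal pairs (-0.55 and -0.60; adjusted p = 0.418). The helicase of initiation was nearer to 0, at -0.37 for eif4a1.L and -0.17 for eif4a1.S, and its cofactor eif4h.S was at -0.40. eif4b.S, another cofactor of the helicase, gave -0.22, -0.14 and -0.87 on its 3 probe sets. Over the 17 tested eif4 probe sets the median was -0.22, with 3 above 0 and 14 below. Over all tested probe sets the median was -0.20, with 65.7% below 0.

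eif5.S, the GTPase-activating protein of eIF2, had the largest positive value among all factors on 1 of its 2 probe sets. That probe set had signals of 837 and 945 (oocytes) and 1798 and 3444 (cortices). Both cortex arrays exceeded both oocyte arrays, and it was the probe set with at least a 2-fold difference in both pairs. The log2 change was 1.47 ± 0.42 (2.76-fold, adjusted p = 0.155), with 1.09 in female 1 and 1.84 in female 2. The second eif5.S probe set had signals of 480.1 and 387 (oocytes) and 595 and 430.4 (cortices), and its groups overlapped. It gave a log2 change of 0.22 ± 0.44 with an interval of -0.78 to 1.23, so the value of the gene depends on which probe set is read.

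**Figure D2:**
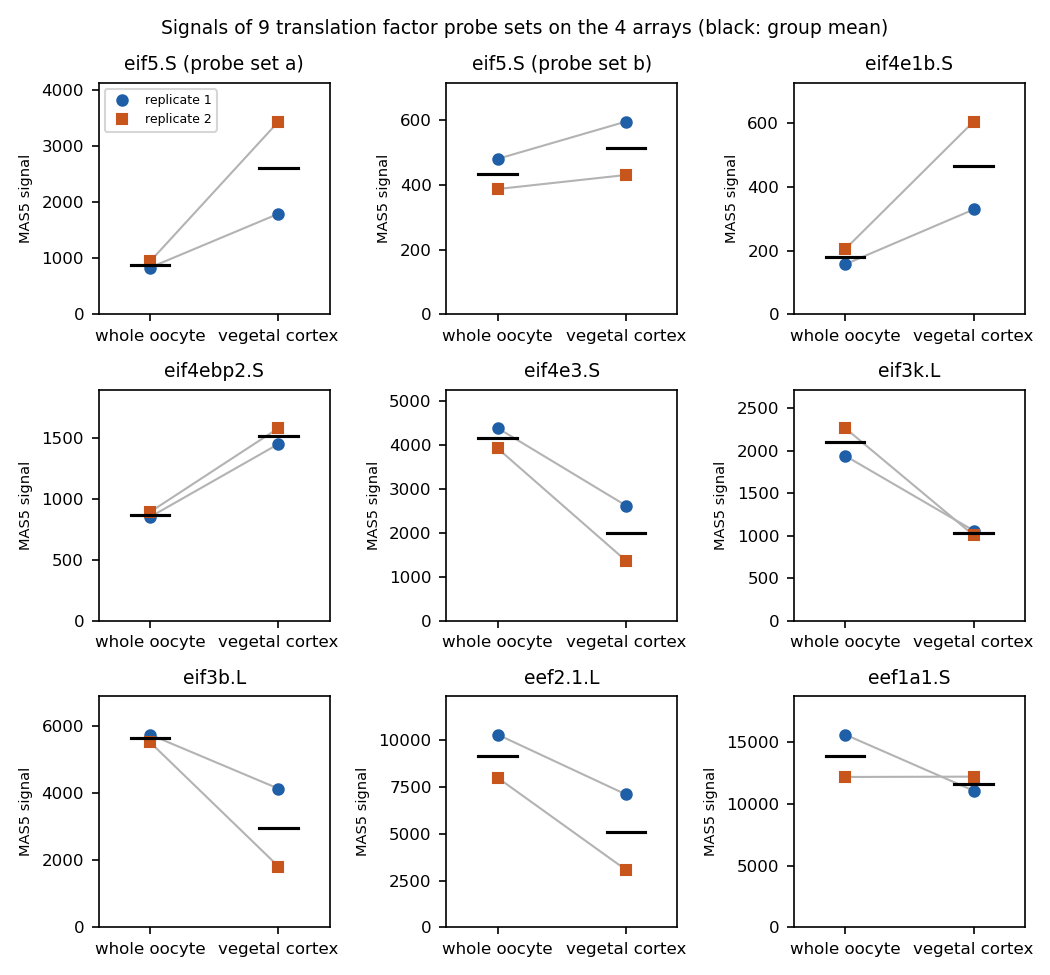
MAS5 signal (vertical axes, linear from 0) of 9 translation factor probe sets in whole oocytes and vegetal cortices, with 1 symbol per array, grey lines joining the arrays of 1 female and black bars at the group means. The first eif5.S probe set (a), eif4e1b.S and eif4ebp2.S are higher on both cortex arrays, eif4e3.S, eif3k.L, eif3b.L and eef2.1.L are lower on both, and the second eif5.S probe set (b) and eef1a1.S overlap.

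Of the other factors that act at start codon choice and subunit joining, eif1b.L had signals of 18324 and 16590.4 (oocytes) and 13634 and 12808 (cortices). eif1b.S had signals of 9416 and 9224 (oocytes) and 6228 and 8260.1 (cortices). Both copies were lower on both cortex arrays, at log2 changes of -0.40 and -0.38 (adjusted p = 0.553 and 0.622); each probe set is of the type that can hybridize to other transcripts, so the copies may not be separated. eif6.S, which keeps the large subunit from joining too early, had a log2 change of -0.43 ± 0.40, and of 0.053 without the second cortex array. eif5a.L, the hypusine-bearing factor that helps ribosomes past difficult peptide bonds, was read by 5 probe sets, whose log2 changes ran from -0.56 to 0.62. Its brightest probe set had signals of 19739 and 19276 (oocytes) and 15571 and 23851 (cortices), and the oocyte values lay inside the cortex range.

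The 4 tested probe sets of eIF2 itself had log2 changes between -0.70 and -0.042. eif2s1.S, the alpha subunit whose phosphorylation shuts initiation down, had signals of 7061 and 9508 (oocytes) and 6354 and 8313 (cortices). The spread between females exceeded the difference between the groups, and the log2 change was -0.17 ± 0.33. Both copies of the beta subunit, eif2s2.L and eif2s2.S, were at -0.16 and -0.042. The gamma subunit eif2s3.S, which binds GTP and the tRNA, had signals of 4662 and 4577 (oocytes) and 3301 and 2439 (cortices). It was lower on both cortex arrays, with a log2 change of -0.70 ± 0.34 (adjusted p = 0.45). eif2a.S, a separate initiator tRNA-binding protein, was at -0.34 ± 0.42.

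Regulators of eIF2 were read by few probe sets. eif2b3.L, the gamma subunit of the exchange factor, had signals of 4045 and 3419 (oocytes) and 2536 and 1884 (cortices). The groups were apart, and the log2 change was -0.76 ± 0.35 (adjusted p = 0.422). eif2b2.L, the beta subunit, was at -0.12 ± 0.38, with overlapping groups. eif2ak2.L, a kinase of eIF2 alpha that senses double-stranded RNA, had signals of 1715 and 1412 (oocytes) and 1168 and 769 (cortices). Both cortex values were below both oocyte values, at a log2 change of -0.70 ± 0.39 (adjusted p = 0.495). All 8 tested probe sets of eIF2, eIF2A, eIF2B and the kinase eif2ak2.L had values below 0 (background 65.7%). Their median was -0.25, beside -0.20 over all tested probe sets.

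eIF3 was the complex with most tested probe sets, 19 for 12 gene copies, and 18 of them were below 0 (background 65.7%). The median log2 change was -0.49, with pair medians of -0.53 and -0.44, and both cortex arrays lay below both oocyte arrays for 9 (background 31.8%) and above them for 0 (background 14.7%). eif3k.L, a subunit of the octamer core, had signals of 1941 and 2266 (oocytes) and 1062 and 1006 (cortices) on 1 of its probe sets. The groups were well apart there, with a log2 change of -1.01 ± 0.36, the smallest p of the complex (unadjusted p = 0.0216, adjusted p = 0.292). Its other, dimmer probe set had signals of 697 and 772 (oocytes) and 753 and 572 (cortices) and a log2 change of -0.16 ± 0.40, so that the probe sets differed by 0.85.

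Subunits b, g and i, which form a module attached to the octamer core of mammalian eIF3, had a lower median than the core subunits; this grouping was made after the values were seen and was not tested. Their 6 probe sets ran from -1.03 to -0.48 with a median of -0.83, beside -0.39 for the 11 probe sets of the core subunits a, c, e, k, l and m. The 6 stand for only 4 gene copies, since 3 of them read eif3b.L, and the 11 for 6 gene copies. The medians were alike in the first female, at -0.50 for b, g and i and -0.55 for the core, and apart in the second, at -1.11 and -0.18. eif3b.L had signals of 5739 and 5512 (oocytes) and 4129 and 1812 (cortices) on the probe set with the lowest value. Most of the difference there came from the second female (-0.47 in the first pair, -1.59 in the second), with a log2 change of -1.03 ± 0.43 (unadjusted p = 0.0433, adjusted p = 0.383). The other eif3b.L probe sets gave -0.74 and -0.55. For the RNA-binding subunit eif3g, the S copy had signals of 1613 and 922 (oocytes) and 901 and 395 (cortices) and a log2 change of -1.01 ± 0.51. The L copy had signals of 4375 and 1985 (oocytes) and 2502 and 964 (cortices), with the first female higher in both groups and a log2 change of -0.91 (standard error 0.55, or 0.28 with the block). Neither copy passed in either fit. eif3i.L was at -0.48 ± 0.30, with groups that did not overlap.

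The remaining eIF3 probe sets lay between -0.63 and 0.13. The largest subunit, eif3a.L, gave -0.39, -0.23 and 0.13 on its 3 probe sets, the last being the value above 0. eif3j.S, a loosely bound subunit that helps the complex onto the ribosome, had signals of 16444 and 16300.5 (oocytes) and 13318 and 12494 (cortices). The oocyte replicates were almost equal and the groups did not overlap, at a log2 change of -0.34 ± 0.27 (adjusted p = 0.604). eif3e.L and eif3l.L were at -0.42 ± 0.29 and -0.63 ± 0.36, both with separate groups, and both eif3c.S probe sets at -0.60 and -0.49. eif3d.S, a subunit able to bind caps itself, had signals of 14562 and 13342 (oocytes) and 14605 and 6279 (cortices). Only the second cortex array was low, and the pairs gave 0.0042 and -1.09. eif3m.S lay at -0.26 and -0.072, with signs that differed between the females on both probe sets.

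**Figure D3:**
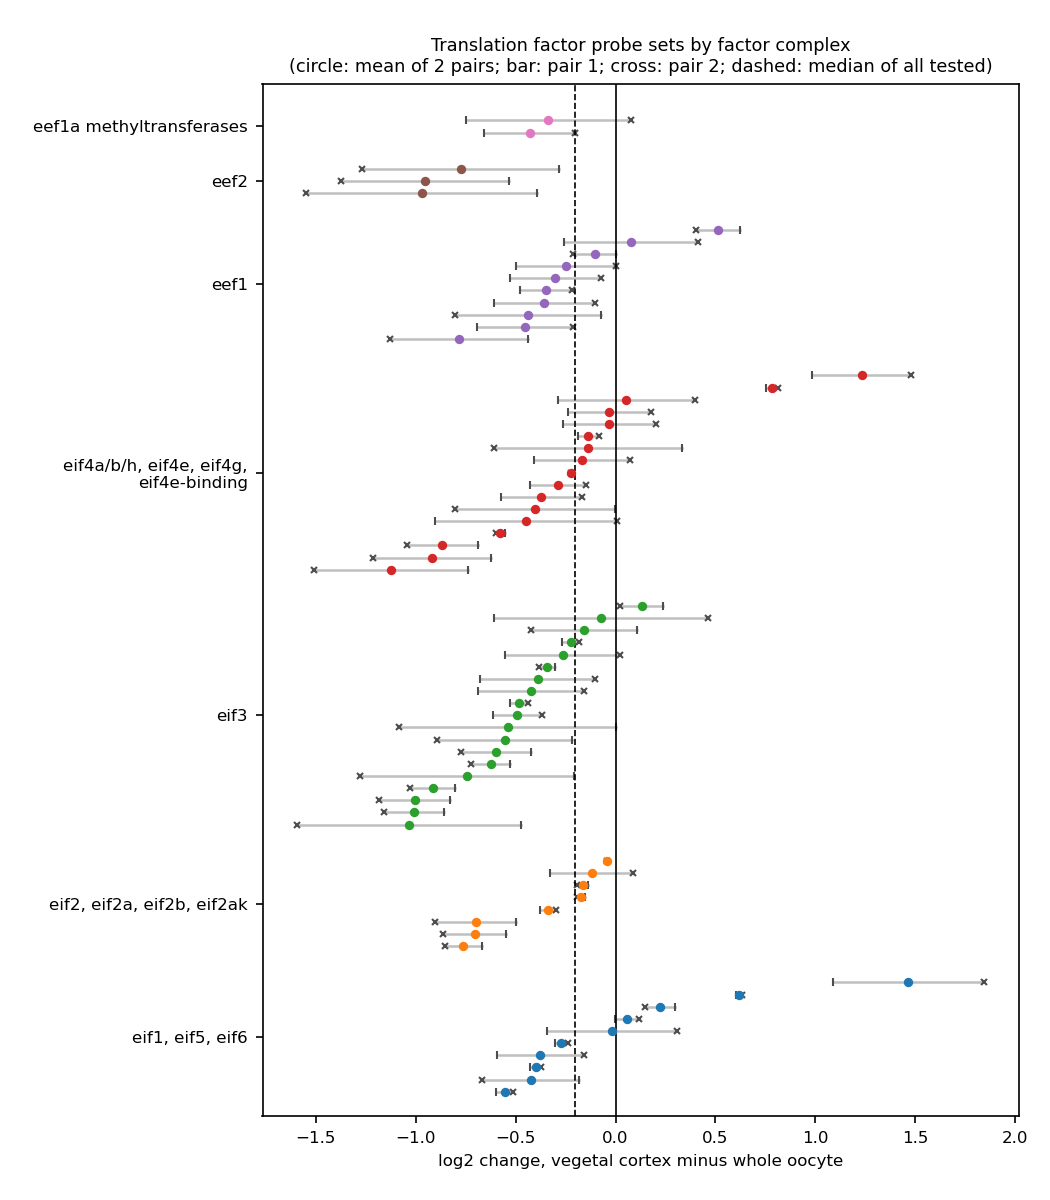
Log2 change of cortex against whole oocyte (horizontal axis) for the 69 tested translation factor probe sets, sorted within each complex. Circles are the mean of both pairs, short bars the first pair and crosses the second. The solid line is 0 and the dashed line the median of all tested probe sets, -0.20. Group medians lie to its left except that of eif1, eif5 and eif6 (-0.14), and are lowest for eEF2 (-0.95, 1 gene) and eIF3 (-0.49). The 3 probe sets for eif5.S, eif4e1b.S and eif4ebp2.S lie above 0.75.

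Among the elongation factors, the eef1 probe sets had log2 changes between -0.78 and 0.51. eef1a1.S, the carrier of aminoacyl-tRNA in somatic cells, had signals of 15640.4 and 12203 (oocytes) and 11085 and 12229 (cortices). The oocyte value of the second female was matched by its cortex value, and the log2 change was -0.25 ± 0.29. The oocyte form of this protein was read in both copies. eef1a1o.L had signals of 17058 and 16930.3 (oocytes) and 16231 and 9692 (cortices), with 3 arrays alike and the second cortex array low. eef1a1o.S had signals of 9619 and 4819 (oocytes) and 7085 and 2196 (cortices), with the second female low in both groups; without the second cortex array its change was 0.057. Their log2 changes were -0.44 ± 0.32 and -0.78 ± 0.57 (adjusted p = 0.583 and 0.582).

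The exchange factor that recharges eEF1A has subunits eef1b2, eef1d and eef1g. eef1b2.L was at -0.11 ± 0.30, eef1d.L at -0.35 ± 0.37 and eef1d.S at 0.078 ± 0.39, all with overlapping groups. eef1g.S was lower on both cortex arrays (-0.45 ± 0.33), and the 2 eef1g.L probe sets gave -0.30 and -0.36 with the first female far above the second in oocytes. eef1e1.L, in spite of its symbol a subunit of the multi-synthetase complex, had signals of 3622 and 4829 (oocytes) and 5584 and 6398 (cortices). It was the eef1 probe set with both cortex arrays above both oocyte arrays, at a log2 change of 0.51 ± 0.33 (adjusted p = 0.542). The median over the 10 tested eef1 probe sets was -0.32. The methyltransferases that modify eEF1A, eef1aknmt.S and eef1akmt1.S, were at -0.43 and -0.34.

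eef2.1.L, the translocase of the ribosome, was read by 3 probe sets that share the gene and may share probes, so they count as 1 observation. The one of the 3 that had the smallest p had signals of 10292 and 7989.9 (oocytes) and 7095 and 3070.1 (cortices). Both cortex arrays lay below both oocyte arrays, most of all the second. Log2 changes were -0.95 ± 0.43, -0.97 ± 0.49 and -0.78 ± 0.43 (adjusted p = 0.413, 0.467 and 0.495), with -0.39 as the median of the first pair and -1.37 of the second.

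No difference between homeologous copies passed. Both copies were tested for 8 factor genes, and the difference between the changes of the L and S copies was fitted by limma over all 636 gene pairs with both copies tested. Of the 8 pairs, 0 passed, beside 6 of 636 (0.943%), and 0 had an unadjusted p under 0.05, beside 9.12%. The largest difference was that of eef1d, -0.43 ± 0.39 (L minus S, 95% interval -1.33 to 0.48). For eif4e3 it was 0.20 (interval -1.20 to 1.61) and for eif3g 0.092 (-0.77 to 0.95), so that a difference of nearly 2-fold between copies lay inside each of these intervals. With the replicate number as a block 10 of the 636 pairs passed, and again 0 of the 8.

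**Figure D4:**
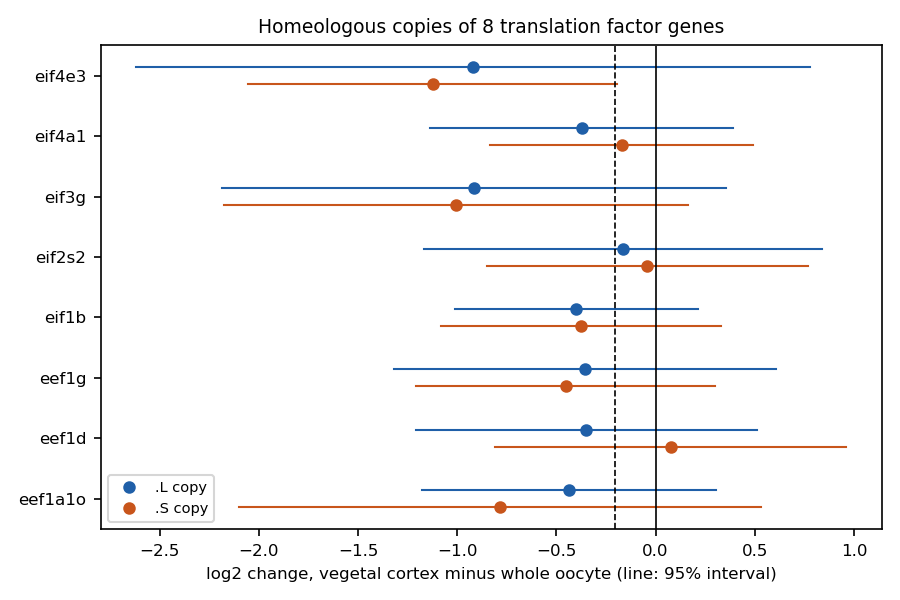
Log2 change of cortex against whole oocyte (horizontal axis) with its 95% interval for the .L and .S copies of the 8 translation factor genes with both copies tested; the solid line is 0 and the dashed line the median of all tested probe sets, -0.20. The intervals of the copies overlap in each gene, and those of eif4e3.L and eef1a1o.S are the widest.

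Several probe sets of 1 gene did not always give the same value. Of 11 gene copies with more than 1 tested probe set, the spread of their log2 changes ran from 0.056 for eef1g.L to 1.24 for eif5.S, with a median of 0.50. By gene copy, all tested probe sets were below 0 for 43 of 51, all above 0 for 5, and mixed for 3. Of the 69 tested probe sets, 5 are of the type that may cross-hybridize to unrelated or related transcripts, and 9 of the type that reads several transcript forms of 1 gene.

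The 11 probe sets below the signal limit had mean signals between 16.0 and 260.2 and were not tested. For 6 gene copies no probe set reached it: eef1a2.S, the muscle and nerve form of eEF1A, eif1ad.L, eif2ak1.L, the kinase that senses heme, eif2b4.L, eif3a.S and eif4a2.L. eif2b4.L had signals of 396 and 239 (oocytes) and 232 and 129.8 (cortices), and eef1a2.S of 49.5 and 96.9 (oocytes) and 22.1 and 61.8 (cortices). The first had lower values on both cortex arrays and the second overlapped. Both eif3a.S probe sets were among the dimmest, between 4.55 and 37.3 on all arrays. The others belong to genes with a brighter probe set: 1 each for eef1a1.S, eef1b2.L, eef1d.L and eif4a1.S.

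Values in the females differed in spread. The second pair had a value of at most -1 for 13 of the 69 factor probe sets (18.8%, against 10.4% of all tested) and the first for 0 (0%, against 2.79%). The second cortex array, on which these low values lie, is also the one with the highest actin 3′ to 5′ ratio (41.6), and the part of this in the low eif3b, eif3g and eef2.1.L values was not tested. Across the 69 probe sets, which share array and scaling, the correlation of log2 signals was 0.96 for the pair of oocyte replicates and 0.90 for the pair of cortex replicates. The median absolute difference between replicates was 0.30 in oocytes and 0.43 in cortices. The median absolute change between the groups was 0.40. Over all tested probe sets these values were 0.34, 0.50 and 0.41. Replicate differences compare single arrays and the change compares group means, so their sizes are not directly comparable.

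**Figure D5:**
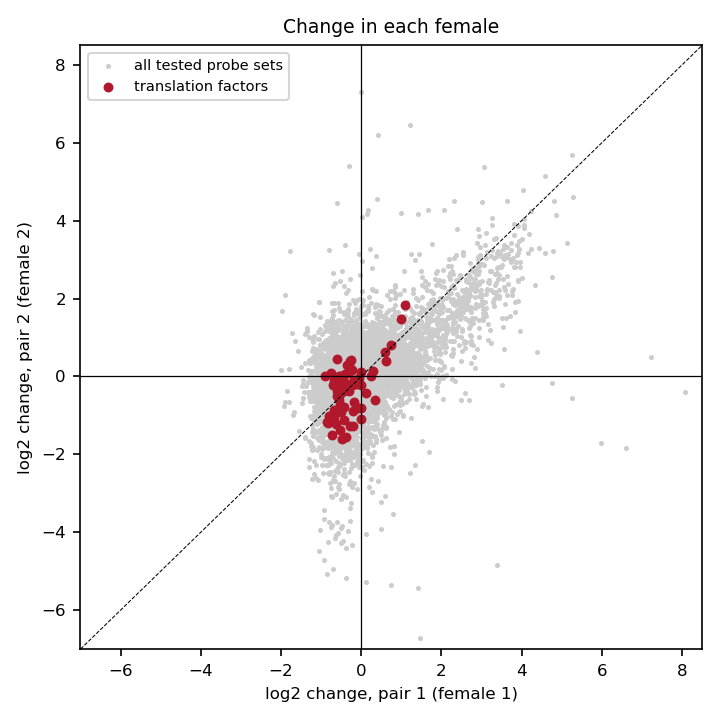
Log2 change of cortex against whole oocyte in the first female (horizontal axis) and in the second (vertical axis) for all tested probe sets (grey) and the 69 translation factors (red); the dashed line marks equal values. The factors gather below 0 in both, reach lower in the second female (13 at or below -1, against 0 in the first), and 1 of them exceeds 1 in both.

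Because same-numbered arrays were taken to share a female, the fit was repeated with the replicate number as a block. Then 0 factors passed in either direction, while 14 of 69 (20.3%) were lower at an unadjusted p under 0.05, beside 9.58% of all, and 3 (4.35%) were higher, beside 9.52%. In that fit the smallest adjusted p of a factor was 0.0882 for eif5.S, followed by 0.168 for eif4e3.S. The result also depended on single arrays. Without the first cortex array, 11 factor probe sets passed as lower (15.9%, background 7.15%) and 3 as higher (4.35%, background 7.55%), in a fit whose error comes from the oocyte arrays alone and assumes that the lone cortex array varies like them. The 11 were 3 probe sets of eef2.1.L, 2 of eif3b.L, eif3d.S, both copies of eif3g, both copies of eif4e3 and eef1a1o.S, and the 3 were eif5.S, eif4e1b.S and a probe set of eif5a.L. Without the second cortex array 0 passed, and the median of the factors, -0.24, was the same to 2 decimals as that of all tested probe sets.

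Other genes of the translation pathway, from lists that hold the partners of the cap and the poly(A) tail, repressors of stored oocyte mRNA, termination and recycling factors, signalling to the ribosome, and aminoacyl-tRNA synthetases, gave 1 call upward and 0 downward among 83 tested probe sets, beside 3.31% and 0% of all tested. It was lsm14b.L of stored messenger ribonucleoprotein particles (log2 change 2.67 ± 0.29). Together these probe sets had a median of -0.29, with 65 below 0 and 18 above. The array as a whole had a median of -0.20, with 65.7% of tested probe sets below 0. The 11 probe sets of the repressor list ran from -0.62 to 2.67 with a median of 0.37, 6 above 0 and 5 below. Among those below were tacc3.L (-0.48 ± 0.32) and tacc3.S (-0.20 ± 0.37). Of the 11, 1 passed as higher and 0 as lower. No call was made among the 20 of the cap and tail partners (median -0.25), the 7 of termination and recycling (-0.33), the 15 of signalling (-0.30) and the 30 of the synthetases and their scaffold proteins (-0.38).

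At an unadjusted p under 0.05, 7 of the 83 were higher and 1 lower, beside 8.02% and 4.62% of all tested, so that neither count stands out from the array. Besides lsm14b.L, the higher ones were larp4.L, which binds the poly(A) tail and its binding protein (1.28 ± 0.33), pabpc1l.S, the embryonic poly(A)-binding protein (1.13 ± 0.44), pdcd4.S, an inhibitor of eIF4A (0.95 ± 0.33), the phosphatase subunit ppp1cc.S (0.91 ± 0.31), ddx6.L (1.65 ± 0.49) and lsm14b.S (1.31 ± 0.32). Lower was farsa.S, a subunit of phenylalanyl-tRNA synthetase (-1.40 ± 0.54). Of the other copies of these genes, larp4.S was at -0.22, pdcd4.L at -0.35 and ppp1cc.L at -0.38 and -0.25. The copy pabpc1l.L was at 0.79 ± 0.78 with overlapping groups, and farsa.L at -0.34 ± 0.38. The helicase ddx6 and lsm14b are known as components of the complex that holds stored mRNA with eIF4E1b and 4E-T in frog oocytes, as is patl2, whose probe set patl2.L was at -0.62 ± 0.43. ddx6.L had signals of 246 and 135 (oocytes) and 537 and 702 (cortices), and lsm14b.L of 4761 and 4733 (oocytes) and 33984 and 27051 (cortices). The oocyte signals of ddx6.L lay below the limit of 271, so that it too was tested only through its cortex signals. Both were higher on both cortex arrays, and of these only lsm14b.L passed (adjusted p = 0.00301, against 0.174 for ddx6.L).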

How the data were processed

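RNA of whole oocytes and vegetal cortices of Xenopus laevis was read on 4 Affymetrix arrays, 2 per group. Each deposited value is the linear intensity of a probe set, made by the authors with MAS5 per the submitters' processing notes, its version not given in the sources used here. The number of arrays limits the precision. Files name no genome build, so coordinates are left out. Replicates of a group came from different females per the labels.

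Platform symbols were checked by gene identifier against RefSeq (79 of 80 factor probe sets found, 0 symbols changed). An offset of 19.1 (10th percentile of signals) preceded log2, and a mean signal under 271 (40th percentile) led to exclusion. Groups were compared with limma 3.58.1 in R 4.3.3, two-sided, by lmFit and trended eBayes (residual df 2, prior df 6.22), with Benjamini-Hochberg adjustment over all tested probe sets, after a run tested on simulated data. Every p in the text is limma's, and errors of log2 changes are SE. For homeologs, the brightest tested probe set of each copy entered such a fit of L minus S.

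The replicate number was taken to mark the donor female, from the labels and titles, which pairs the arrays. Deviations of same-numbered arrays from their group means correlated at 0.35 across probe sets. The fit without the block is the one reported. Alternatives varied the offset, the signal limit, the scaling, the trend, the block and the arrays. Members and lists were chosen with earlier results of these data known. Genes were named by rule (called, unadjusted p under 0.05, or highest, lowest or brightest of a complex); other tested factors were added to complete each complex.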

Additional observations from a re-analysis of the deposited data

How the results depend on the processing

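With 2 arrays per group, changes under about 2-fold were below what most single probe sets could resolve. Larger changes could also fail the limma test after adjustment. Examples were eif5.S at 2.76-fold (adjusted p = 0.155) and larp4.L at 2.43-fold (adjusted p = 0.102). That no factor passed therefore does not exclude changes of somewhat more than 2-fold. No translation factor passed in either direction under any offset, signal limit, scaling, trend or replicate block. The median of the tested factors lay between -0.45 and -0.24 over all alternatives. With 1 array left out at a time, the factors that passed numbered 0 to 3 higher and 0 to 11 lower, all of the calls arising without vegetal cortex replicate 1, as described above. Over all tested probe sets these counts were 114 to 702 higher and 0 to 665 lower, and 0 to 76 homeolog pairs differed. The paired analysis (replicate block) called 355 probe sets higher and 0 lower, and 10 homeolog pairs in place of 6. Quantile normalization called 1 probe set lower, with a median of -0.45 for the factors and -0.16 over all tested probe sets. Without a signal limit 2 homeolog pairs of 1017 passed. The cause of these differences was not tested.

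Some uncalled values changed sign, most of them near 0, and those of eef1a1o.S and eif6.S from -0.78 and -0.43. Under quantile normalization the log2 changes were 0.077 for eif2s2.S, 0.038 for eif4enif1.L and 0.072 for eif4g3. Under median centring they were 0.050, 0.061 and 0.060, and 0.074 for the brightest eif5a.L probe set. With 1 array left out they ran from -1.62 to 0.057 for eef1a1o.S, -0.090 to 0.25 for eef1d.S and -0.90 to 0.053 for eif6.S. Ranges were -0.39 to 0.042 for eif2s1.S, -0.17 to 0.092 for eif2s2.S, -0.72 to 0.042 for eif2a.S and -0.26 to 0.018 for eif2b2.L. They were -0.18 to 0.12 for eif4enif1.L, -0.42 to 0.36 for eif4g3 and -0.69 to 0.020 for eef1akmt1.S. Of genes with several tested probe sets, 1 probe set each is given here. The ranges were -0.32 to 0.29 for the brightest eif5a.L probe set and -0.12 to 0.23 for the brighter one of eif4e2.L. They were -0.020 to 0.28 for the eif3a.L probe set at 0.13 and -0.41 to 0.14 for the eif4b.S probe set at -0.14.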
